A study of Mus musculus with 15 samples.

Results

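The 9 genes described here encode proteins of the slit diaphragm and of the foot process membrane of podocytes, the epithelial cells that wrap the capillaries of the kidney glomerulus. They were taken by name from a table of 55416 mouse genes: Nphs1, Kirrel1 (listed as Kirrel), Cd2ap, Tjp1, Magi2, Ptpro, Podxl, Fat1 and Plce1. RNA was sequenced from 15 samples of SVI, a conditionally immortalised mouse podocyte line that was differentiated and grown on flexible silicone membranes. Experiment 1 held 3 unstretched samples and 6 low-stretch samples, whose membranes were deflected by 5 to 6 mm per the labels. Experiment 2 held 3 unstretched samples and 3 high-stretch samples, with a deflection of 7 to 8 mm. All groups share this 1 line, grown without the other cells of the glomerulus. The labels do not say whether replicates were separately grown cultures, so the p-values measure the spread between these samples. Amplitude and experiment were the same split, and their effects cannot be told apart.

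Foot processes of neighbouring podocytes interlock, and the slit diaphragm is the cell junction that bridges the gap between them and takes part in filtering the blood. Its extracellular part is built from nephrin and the nephrin-like protein Neph1, which bind each other across the gap. Adaptors and scaffolds inside the cell tie them to the actin cytoskeleton, while the negatively charged sialomucin podocalyxin coats the free membrane above the junction. Loss of function of several of these genes causes proteinuria, and podocyte lines in culture are known to keep only part of the junction.

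The line expressed some of these genes strongly and others barely at all. With a level of at least 1 TPM (an abundance corrected for transcript length and depth, summed over the transcripts of a gene) in every sample of a group as the mark of expression, 5 of the 9 members were expressed in all 4 groups: Fat1, Kirrel1, Podxl, Tjp1 and Cd2ap. Magi2 and Plce1 reached that mark only in the unstretched cells of experiment 1. Nphs1 and Ptpro, 2 genes that define the podocyte in tissue, were at trace level in every group, with at least 1 sample under 0.1 TPM.

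Ordered by mean TPM in the unstretched cells of experiment 1, Fat1 came first with 140 ± 1.79 (SD, n = 3), followed by Kirrel1 with 88.5 ± 2.46, Podxl with 61.1 ± 1.26, Tjp1 with 42.8 ± 6.84 and Cd2ap with 40.1 ± 2.88. The ranges of Tjp1 and Cd2ap overlapped, so their order was not resolved. Plce1 followed with 1.82 ± 0.672 TPM, Magi2 with 1.26 ± 0.0895, Nphs1 with 0.114 ± 0.0339 and Ptpro with 0.00343 ± 0.00196. Among 21780 protein-coding genes Fat1 ranked at the 95.3 percentile, Cd2ap at 80.9 and Nphs1 at 38.6. In the unstretched cells of experiment 2 the ranges of Fat1, Kirrel1 and Podxl overlapped, with means of 71.3 ± 39.4, 68.1 ± 27.8 and 47.0 ± 15.3 TPM (SD, n = 3). Tjp1 and Cd2ap had 9.75 ± 6.13 and 6.32 ± 5.00 TPM there.

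**Figure D1:**
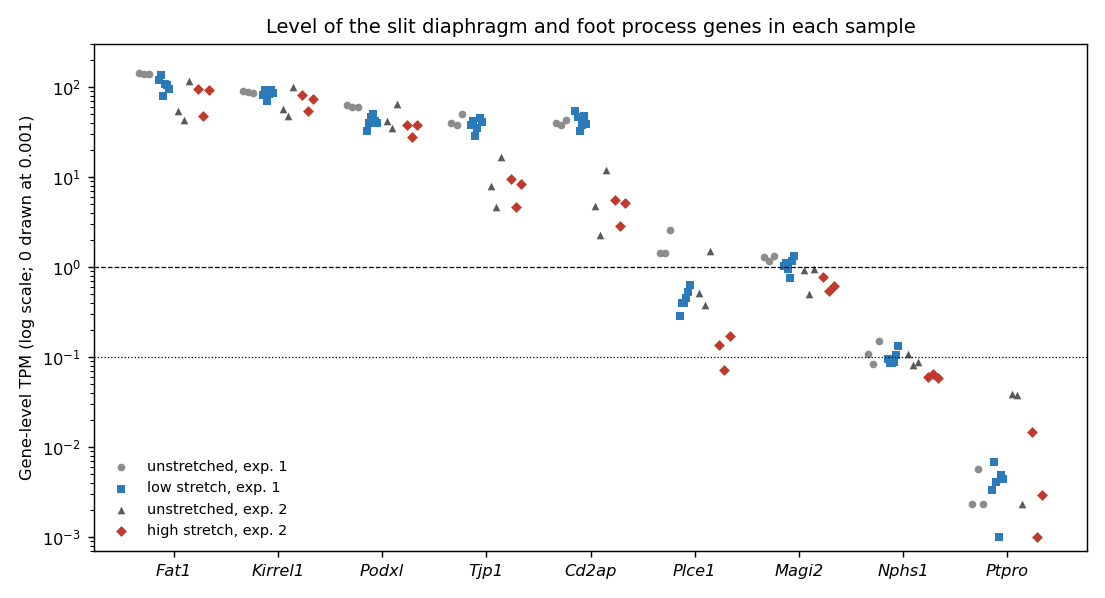
Gene-level TPM (log axis) of the 9 members in each of the 15 samples, with 1 point per sample and a colour and symbol per group. Dashed and dotted lines mark 1 and 0.1 TPM, and values of 0 are drawn at 0.001; 5 genes lie above the dashed line in every sample, whereas Nphs1 sits near 0.1 and Ptpro below it.

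Total gene counts ranged from 262.0 to 396.7 M (megacounts) per sample in experiment 1 and from 172.2 to 297.6 M in experiment 2. Unstretched replicate 3 of experiment 2 stood apart from the other 2 of its group in several members, for example with 35.8 CPM (counts scaled by library size) of Cd2ap against 19.3 and 10.3. High-stretch replicate 2 also stood apart from its group in several members, with 13.7 CPM of Cd2ap against 20.6 and 21.0, and 630 CPM of Fat1 against 1008 and 1113. Of 9 podocyte markers, 3 had at least 1 TPM in every sample of each experiment 1 group and of the unstretched group of experiment 2, and 2 had it under high stretch. Synpo and Podxl were among them in every group. The other was Wt1 in each experiment 1 group and Lmx1b in the unstretched group of experiment 2. The podocyte genes Tcf21 and Foxc2 stayed under 0.1 TPM in all samples. The podocyte label thus rests on part of the marker list only. Of 5 mesangial markers, Pdgfrb, Gata3 and Acta2 passed 1 TPM in every sample, and 3 to 4 of 5 parietal epithelial markers did so in each group, whereas no endothelial marker did.

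Stretch was compared with no stretch within each experiment. Of the 9 members, 8 passed the filter on low counts in both comparisons, and Ptpro did not. With p-values adjusted over all genes by the Benjamini-Hochberg method, edgeR's quasi-likelihood test called 1 of 8 members under low stretch, where 5.45% of all genes tested were called. It called 1 of 8 under high stretch, where 3.47% of all genes were called. The gene called was Plce1, lower in both. The median log2 fold change of the 8 members was -0.15 under low stretch against 0.01 over all genes tested, and -0.23 under high stretch against -0.02. In CPM the stretched and unstretched groups did not overlap for 2 of 8 members in either comparison, Plce1 and Podxl, where 15.3% of all genes under low stretch and 20.6% under high stretch did not overlap.

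**Figure D2:**
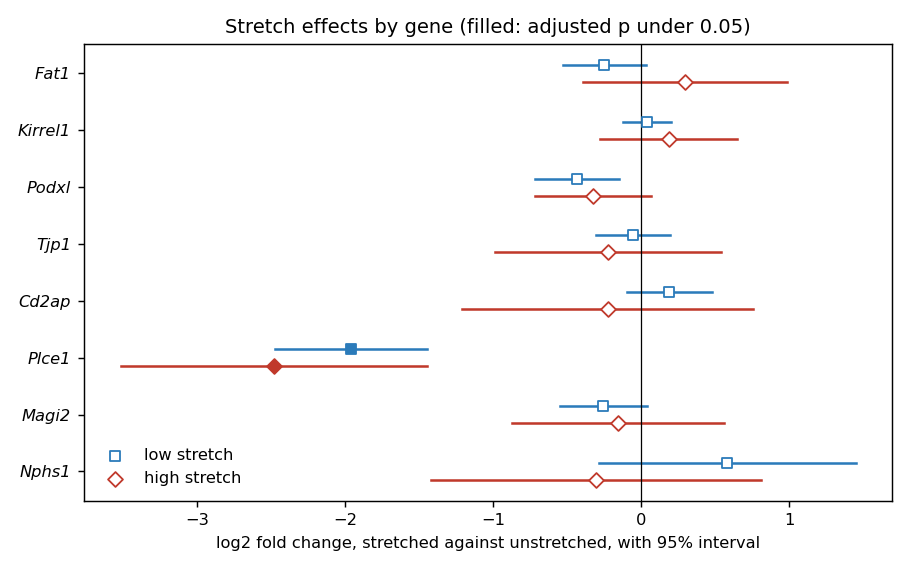
Log2 fold change of each tested member with its 95% interval (edgeR), low stretch as squares and high stretch as diamonds, filled where the adjusted p was under 0.05. Plce1 alone is filled in both comparisons, at -1.96 and -2.48, and the intervals of most other members cross 0.

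Plce1 (ENSMUSG00000024998) encodes phospholipase C epsilon, an enzyme that cleaves a membrane phospholipid downstream of Ras-family GTPases and whose loss causes nephrotic syndrome in children. Its level was 6.17, 6.44 and 11.8 CPM in the 3 unstretched samples of experiment 1, and the 6 low-stretch samples ranged from 1.42 to 2.73 CPM with a median of 2.08. Every low-stretch sample lay below every unstretched one. Plce1 fell 3.89-fold, with a log2 fold change of -1.96 ± 0.233 (SE; 95% interval -2.48 to -1.45; edgeR adjusted p = 0.00314). The call held in each of 8 other settings and each time a sample was left out.

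In experiment 2, Plce1 stood at 3.79, 2.98 and 7.73 CPM in the unstretched samples and at 0.741, 0.589 and 1.25 CPM under high stretch. The groups again did not overlap, and the highest unstretched value was that of replicate 3, a library that stood apart from its group. The log2 fold change was -2.48 ± 0.450 (SE; 95% interval -3.52 to -1.45; edgeR adjusted p = 0.0262), a 5.59-fold fall. Without that library it was -1.92, with an edgeR adjusted p of 0.00517. The call held in 7 of 8 other settings and was lost with limma on log2(TPM + 0.1), where the value was -1.80 (adjusted p = 0.150). The blocks on replicate number and on plate positions count as separate settings here but are the same fit in experiment 2. It was also lost when unstretched replicate 1 or any 1 of the 3 high-stretch samples was left out (edgeR adjusted p from 0.0794 to 0.144), with log2 fold changes of -2.82 to -2.25.

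The sample descriptions give plate positions, which were grouped in order into runs of consecutive positions with 1 unstretched sample each. The labels do not name such runs, and adjacent positions can lie in different runs. Where plate positions are a block elsewhere, these runs are meant. Over genes, the deviations from the group means of unstretched and low-stretch samples of the same run correlated at 0.328 to 0.570 (6 of 6 pairs). Those of different runs correlated at -0.520 to -0.052. Deviations within a group cancel out, so negative values between runs partly follow from positive ones within runs. Pairs of different runs include adjacent positions: low-stretch replicate 2 with unstretched replicate 2 (-0.139) and low-stretch replicate 4 with unstretched replicate 3 (-0.266). In experiment 2 the samples of the same run correlated at -0.163 to 0.450 (3 pairs). Against the unstretched sample of the same run, Plce1 CPM under low stretch was 20.7% to 35.8% (6 of 6 lower) and under high stretch 16.1% to 19.7% (3 of 3 lower). Bulk RNA cannot tell fewer cells of a type from less RNA per cell. The summed TPM of 5 tubule markers, of which Lrp2 alone reached 1 TPM in every sample, ranged from 51.2 to 90.2 under low stretch against 115 to 134 in its unstretched group, and from 17.8 to 37.9 against 22.5 to 71.3 in experiment 2. The summed TPM of the 5 mesangial markers ranged from 5645 to 7654 under high stretch against 2621 to 4926 unstretched, and from 1721 to 4118 under low stretch against 1438 to 2341. The summed TPM of the 5 parietal epithelial markers ranged from 202 to 220 under high stretch against 228 to 321 unstretched, and from 206 to 373 under low stretch against 256 to 320. The part of these lists in the Plce1 result was not tested.

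Both main Plce1 transcripts were lower. Plce1-204 held 67.8% ± 3.47 (SD, n = 3) of Plce1 TPM in the unstretched cells of experiment 1 and 67.3% ± 8.79 (SD, n = 6) under low stretch. In experiment 2 its share was 82.7% ± 2.07 unstretched and 82.0% ± 9.84 under high stretch (SD, n = 3 each). It has 6846 coding bases, the same number as Plce1-201, though the 2 coding sequences were not compared. Plce1-201 held 25.2% ± 2.30 of the TPM in the unstretched cells of experiment 1. Plce1 had too little TPM for the test of transcript usage.

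**Figure D3:**
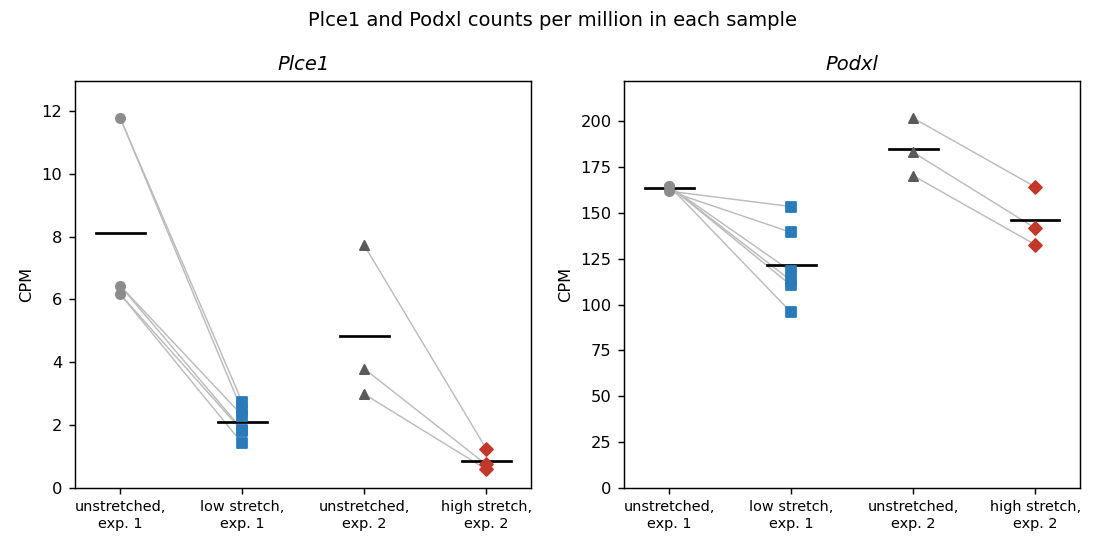
CPM of Plce1 and Podxl in every sample, with bars at the group means and grey lines that join samples of the same run of plate positions. All lines run downward from the unstretched to the stretched sample, with Plce1 at 1.42 to 2.73 CPM under low stretch and 0.589 to 1.25 CPM under high stretch.

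The genes whose pattern was most like that of Plce1 were sought over all 15 samples, as Pearson's r of log2 CPM centred within each experiment. Among 12939 genes Scel came first with r = 0.982, followed by Lrch1 with 0.981 and Fibin with 0.980. Scel fell by 2.28 on the log2 scale under low stretch and had a log2 fold change of -3.65 under high stretch (edgeR adjusted p = 0.00628 and 0.0116). The samples share their groups, so r describes these libraries.

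Podxl (ENSMUSG00000025608) encodes podocalyxin, the sialomucin that keeps foot process membranes apart by its charge. Unstretched samples of experiment 1 held 165, 162 and 165 CPM, and low-stretch samples ranged from 95.7 to 153 CPM with a median of 116. No low-stretch sample reached the unstretched range. The log2 fold change of -0.43 ± 0.129 (SE; 95% interval -0.72 to -0.15) had an unadjusted p of 0.0064 and did not pass after adjustment (edgeR adjusted p = 0.0762). It passed with plate positions as a block (-0.45, edgeR adjusted p = 0.00297, a setting that called 28.2% of all genes). It also passed with limma on TPM (-0.56, limma adjusted p = 0.0296), a scale on which the median of all genes was -0.13. Without low-stretch replicate 4 it passed as well (-0.50, edgeR adjusted p = 0.0469).

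In experiment 2, Podxl stood at 183, 170 and 202 CPM unstretched and at 141.8, 132.7 and 164.3 CPM under high stretch. The groups did not overlap, yet the log2 fold change of -0.32 (95% interval -0.72 to 0.07) did not pass (edgeR adjusted p = 0.471). Against the unstretched sample of the same run of plate positions, Podxl was at 58.1% to 94.8% under low stretch (6 of 6 lower) and at 77.4% to 81.4% under high stretch (3 of 3 lower). One transcript, Podxl-201, made up 96.4% to 97.6% of Podxl TPM as a group mean. Ezr, which encodes ezrin, the linker between podocalyxin and actin, fell by 0.60 on the log2 scale under low stretch (edgeR adjusted p = 0.0127). Its value under high stretch was -0.67 (edgeR adjusted p = 0.0836).

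Nphs1 (ENSMUSG00000006649) encodes nephrin, the immunoglobulin-family protein that spans the slit. The table held 75, 97 and 113 Nphs1 counts in the unstretched samples of experiment 1 and from 65 to 202 under low stretch, with a median of 146. Experiment 2 had 156, 87 and 110 counts unstretched and 120, 124 and 67 under high stretch. All groups overlapped with the one they were compared with. The log2 fold changes were 0.58 (95% interval -0.29 to 1.45; edgeR adjusted p = 0.3996) under low stretch, where TPM gave the opposite sign (-0.10), and -0.31 (95% interval -1.42 to 0.81; edgeR adjusted p = 0.892) under high stretch.

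The Nphs1 gene count and its full-length transcript differed in pattern. In the annotation, exons of Nphs1 share 183 bases with Rps12-ps4, a ribosomal protein pseudogene on the opposite strand that had 2452 to 7434 counts per library. Rps12-ps4 stood at 8.91 ± 0.727 and 12.1 ± 3.28 CPM in the unstretched (n = 3) and low-stretch (n = 6) samples of experiment 1, and at 17.8 ± 2.88 and 24.9 ± 4.44 CPM in experiment 2 (SD, n = 3 each). The strand setting of the counting is not given in the sources used here, and the part of that gene in the Nphs1 counts was not tested.

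The 30-exon coding transcript Nphs1-201 had 0.0708 to 0.116 TPM in the unstretched samples of experiment 1 and 0.0453 to 0.0947 under low stretch, which overlap. In experiment 2 it had 0.0370, 0.0575 and 0.0562 TPM unstretched and 0.0191, 0.0108 and 0.0138 under high stretch. These groups did not overlap, at levels too low for the usage test. How often other transcripts fail to overlap was not counted, and 20.6% of all genes tested did not overlap in CPM under high stretch. The coding transcript made up 84.9% ± 8.30, 71.2% ± 12.2, 56.8% ± 19.5 and 24.2% ± 7.55 of Nphs1 TPM (SD) in the unstretched and low-stretch cells of experiment 1 and the unstretched and high-stretch cells of experiment 2. The rest came from Nphs1-204, a 2-exon transcript with a retained intron.

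**Figure D4:**
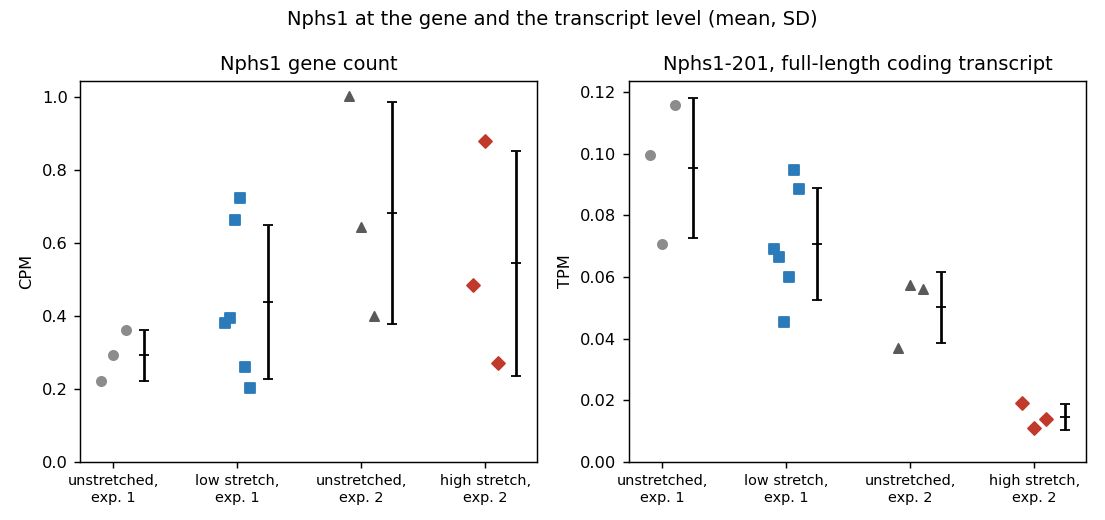
Nphs1 gene counts in CPM and the TPM of its full-length coding transcript Nphs1-201 in every sample, with the mean and SD beside each group. Gene counts overlap between groups in both experiments, whereas the transcript lies between 0.0108 and 0.0191 TPM under high stretch and between 0.0370 and 0.0575 in its unstretched group.

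Kirrel1 (ENSMUSG00000041734) encodes Neph1, the partner of nephrin in the slit diaphragm, and it was the better represented of the pair in this line. It had 339, 338 and 328 CPM in the unstretched samples of experiment 1 and 305 to 371 CPM under low stretch, with a median of 351. In experiment 2 it had 349, 315 and 441 CPM unstretched and 431, 363 and 449 CPM under high stretch. The groups overlapped in both. The log2 fold change was 0.04 under low stretch (95% interval -0.12 to 0.20, edgeR adjusted p = 0.771), the narrowest interval among the members. It had the opposite sign on TPM and with a block on replicate number, a fit without low-stretch replicates 4 to 6. Under high stretch it was 0.18 (95% interval -0.28 to 0.65; edgeR adjusted p = 0.821). Its 2 main transcripts, Kirrel-202 and Kirrel-203, each have 2367 coding bases. They held 59.1% ± 3.12 and 40.6% ± 3.12 of the TPM in the unstretched cells of experiment 1 (SD, n = 3).

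Cd2ap (ENSMUSG00000061665) encodes the adaptor that binds the nephrin tail and actin regulators. It had 106, 99.2 and 118 CPM in the unstretched samples of experiment 1 and from 99.6 to 158 CPM under low stretch, with a median of 120. In experiment 2 it had 19.3, 10.3 and 35.8 CPM unstretched and 20.6, 13.7 and 21.0 CPM under high stretch. The groups overlapped in both comparisons. The log2 fold changes were 0.19 (95% interval -0.10 to 0.48; edgeR adjusted p = 0.402) under low stretch and -0.23 (95% interval -1.21 to 0.76; edgeR adjusted p = 0.912) under high stretch. The second changed sign, to 0.37, without unstretched replicate 3.

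Tjp1 (ENSMUSG00000030516) encodes ZO-1, the junction scaffold that binds the tail of Neph1. It had 129, 124 and 166 CPM in the unstretched samples of experiment 1 and 110 to 155 CPM under low stretch, with a median of 136. Experiment 2 had 43.2, 27.8 and 64.3 CPM unstretched and 43.8, 27.3 and 43.4 CPM under high stretch. The groups overlapped again. The log2 fold changes were -0.06 (95% interval -0.30 to 0.19; edgeR adjusted p = 0.798) and -0.22 (95% interval -0.99 to 0.54; edgeR adjusted p = 0.883), and each changed sign in at least 1 fit without a sample.

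ZO-1 is known in forms with and without a stretch called alpha, and the line made both. The exon that coding transcript Tjp1-202 holds and Tjp1-201 lacks lies on the minus strand at chr7:65314093-65314332 of GRCm38, is exon 20 of Tjp1-202, and is 240 bases or 80 codons long. It is shown, 5′ to 3′ and in lower case throughout, because its share is the isoform measure given here:
Tjp1 exon 20: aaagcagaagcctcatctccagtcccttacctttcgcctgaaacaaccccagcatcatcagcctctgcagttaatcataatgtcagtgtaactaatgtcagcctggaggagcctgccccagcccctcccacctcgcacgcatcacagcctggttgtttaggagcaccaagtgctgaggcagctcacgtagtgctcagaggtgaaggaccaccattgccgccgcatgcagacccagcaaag
Transcripts with the exon held 34.1% ± 0.625 (SD, n = 3) of the TPM with and without it in the unstretched cells of experiment 1, and 34.6% ± 2.69 (SD, n = 6) under low stretch. The TPM without it includes Tjp1-207, annotated as a target of nonsense-mediated decay (RNA breakdown), besides Tjp1-201. Tjp1-207 made up 11.7% to 14.6% of Tjp1 TPM as a group mean. In experiment 2 the shares were 32.8% ± 2.09 and 33.0% ± 5.07 (SD, n = 3 each). For the log2 ratio of Tjp1-202 to the other Tjp1 transcripts the stretch differences were 0.03 (95% interval -0.20 to 0.26) under low and -0.01 (95% interval -0.48 to 0.46) under high stretch. Tjp1-202 and Tjp1-201 have 5235 and 5055 coding bases, so the 240-base exon is not their only difference.

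Magi2 (ENSMUSG00000040003) encodes a scaffold of the nephrin complex. It had 3.15, 2.76 and 3.30 CPM in the unstretched samples of experiment 1 and 2.18 to 3.00 CPM under low stretch, with a median of 2.54. Experiment 2 had 1.77, 1.24 and 2.50 CPM unstretched and 1.92, 1.51 and 1.46 CPM under high stretch. Groups overlapped in both. The log2 fold changes were -0.26 (95% interval -0.55 to 0.04; edgeR adjusted p = 0.272) and -0.16 (95% interval -0.87 to 0.56; edgeR adjusted p = 0.916). A share of 28.6% ± 2.20 (SD, n = 3) of its TPM in the unstretched cells of experiment 1 came from Magi2-204, a 2-exon transcript with no coding sequence, and 55.6% ± 17.5 (SD, n = 3) in those of experiment 2.

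Fat1 (ENSMUSG00000070047) encodes a giant protocadherin of the slit that recruits actin regulators of the Ena/VASP family. It had 1008, 1017 and 1011 CPM in the unstretched samples of experiment 1 and 674 to 1021 CPM under low stretch, with a median of 863. Experiment 2 had 661, 582 and 1019 CPM unstretched and 1008, 630 and 1113 CPM under high stretch. The low-stretch samples reached up to the unstretched values and the groups overlapped in both comparisons. The log2 fold changes had opposite signs, -0.25 (95% interval -0.53 to 0.03; edgeR adjusted p = 0.265) under low and 0.30 (95% interval -0.39 to 0.99; edgeR adjusted p = 0.797) under high stretch, and neither passed.

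Fat1 transcripts divided almost evenly by a 36-base exon on the plus strand at chr8:45049842-45049877 of GRCm38, exon 26 of Fat1-203, which Fat1-205 lacks. It adds 12 codons in frame near the end of a coding sequence of 13806 bases. It is shown 5′ to 3′ because it separates the 2 main Fat1 transcripts:
Fat1 exon 26: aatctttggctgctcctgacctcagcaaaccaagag
The share of TPM with this exon was 51.9% ± 3.42 (SD, n = 3) unstretched and 50.6% ± 1.52 (SD, n = 6) under low stretch, and 49.6% ± 1.55 unstretched and 53.6% ± 1.83 under high stretch in experiment 2 (SD, n = 3 each). In experiment 2 all 3 high-stretch shares, 52.3% to 55.7%, lay above the 3 unstretched ones, 47.8% to 50.6%. How often the shares of other exons separate in this way was not counted. The log2 ratio of Fat1-203 to the other Fat1 transcripts was higher by 0.22 under high stretch (95% interval -0.06 to 0.51), which did not pass (limma adjusted p = 0.699).

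**Figure D5:**
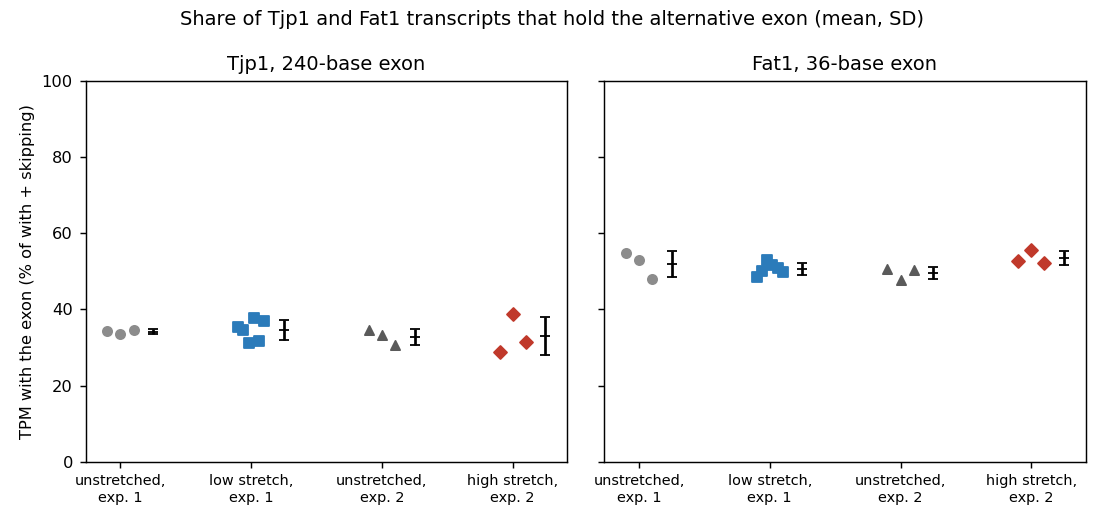
Percentage of TPM from transcripts that hold the 240-base Tjp1 exon (left) and the 36-base Fat1 exon (right), over transcripts with it and skipping it, in every sample with the mean and SD beside each group. Tjp1 means lie between 32.8% and 34.6% and Fat1 means between 49.6% and 53.6%.

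Transcript usage was tested for 10 transcripts of 5 members under low stretch and 9 transcripts of 4 members under high stretch, and limma called none of either. Over all transcripts tested it called 0.0144% under low stretch and 0% under high stretch. At an unadjusted p under 0.05 the counts were 0 and 1, the latter for the main Cd2ap transcript Cd2ap-201. It held 85.2% ± 1.83 of Cd2ap TPM in the unstretched cells of experiment 2 and 90.0% ± 2.06 under high stretch (SD, n = 3 each; limma adjusted p = 0.616).

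Ptpro (ENSMUSG00000030223) encodes GLEPP1, the receptor tyrosine phosphatase of the podocyte's free membrane. It had 0 to 5 counts per library: 1 to 5 and 1 to 3 in the unstretched and low-stretch samples of experiment 1, and 1 to 2 and 0 to 3 in the unstretched and high-stretch samples of experiment 2. At these counts no difference was detectable, and no fold is given.

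The 2 stretch effects were then compared with each other in 1 fit of all 15 samples. edgeR called 0 of 8 members different, and 0 of 22015 genes in all, with 0 members and 547 genes at an unadjusted p under 0.05. DESeq2 called 0 genes as well, and no alternative called a member. For Plce1 the high-stretch effect was lower than the low-stretch effect by a log2 difference of -0.53 (95% interval -1.57 to 0.51), and the difference was 0.06 without unstretched replicate 3 of experiment 2. The widest estimate was that of Nphs1, -0.92 (95% interval -2.30 to 0.47), and Fat1 had 0.53 (95% interval -0.11 to 1.16).

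The unstretched groups were compared to show the members at rest in each experiment. edgeR called 4 of 8 members, against 62.5% of all genes tested, and 5 of 8 did not overlap, against 72.9% of all genes. With 8 members, neither count sets them apart from the background. Cd2ap was lower in experiment 2 by a log2 difference of -2.32 ± 0.402 (SE; edgeR adjusted p = 0.00533) and Tjp1 by -1.65 ± 0.299 (SE; edgeR adjusted p = 0.00534). Both calls held in each of 7 other settings and each time a sample was left out. The Cd2ap difference was -2.92 without unstretched replicate 3 of experiment 2, and on TPM the values were -2.95 for Cd2ap and -2.30 for Tjp1. Magi2 was called at -0.75 (edgeR adjusted p = 0.0461), which was lost in 5 of 6 fits without 1 sample. Nphs1 was called higher, at 1.21 (edgeR adjusted p = 0.0249), but had the opposite sign on TPM (-0.15), a scale that moved the median of all genes by -0.64, and lost the call without unstretched replicate 1 or 2 of experiment 1 or replicate 1 of experiment 2 (0.83 to 1.21). What differed between the experiments is not given in the sources used here.

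Around the members, 62 genes in 7 lists of partners, paralogs and kin were examined in the same fits. The lists were chosen with earlier results of these data known, so their counts are a description. Under low stretch 2 of 56 tested rose and 5 fell, beside 1.85% and 3.6% of all genes. Under high stretch 1 of 51 rose and 4 fell, beside 1.31% and 2.16% of all genes. Their median log2 fold changes were 0.05 and 0.01. With plate positions as a block, 15 genes rose and 19 fell under low stretch, a setting that called 28.2% of all genes. The block gave 3 higher and 8 lower under high stretch, beside 614 and 932 of all 18524 genes tested.

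Among 17 partners of the slit diaphragm, Crb2, a polarity protein found at the slit, fell in both comparisons, from 1.88 ± 0.630 CPM (SD, n = 3) to 0.391 ± 0.273 (n = 6) under low stretch (log2 -2.27, edgeR adjusted p = 0.0211) and from 3.05 ± 0.693 to 0.548 ± 0.172 (n = 3 each) under high stretch (log2 -2.46, edgeR adjusted p = 0.00877). Fyn, the Src-family kinase that phosphorylates nephrin, rose in both. It went from 54.6 ± 8.91 to 89.6 ± 8.21 CPM under low stretch (log2 0.71, edgeR adjusted p = 0.01001) and from 56.0 ± 5.88 to 104 ± 8.98 under high stretch (log2 0.91, edgeR adjusted p = 0.0313). Groups did not overlap for either gene. Pard3, of the polarity complex, rose by 0.25 on the log2 scale under low stretch (edgeR adjusted p = 0.038) and had 0.36 under high stretch (edgeR adjusted p = 0.412). Kirrel2 and Trpc6 were not tested in either comparison.

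In the phospholipase C family, 1 of 11 genes tested under low stretch and 1 of 10 under high stretch was called, Plcd4. It fell from 7.52 ± 1.31 CPM (SD, n = 3) to 2.50 ± 0.744 (n = 6) under low stretch (log2 -1.59, edgeR adjusted p = 0.00512) and from 10.95 ± 2.52 to 2.20 ± 0.730 (n = 3 each) under high stretch (log2 -2.30, edgeR adjusted p = 0.0102). Fat2, a paralog of Fat1, fell under low stretch from 11.7 ± 1.21 to 2.69 ± 0.952 CPM (log2 -2.12, edgeR adjusted p = 0.00371). Under high stretch its groups overlapped (log2 -1.92, edgeR adjusted p = 0.243, and 8.94e-06 with plate positions as a block). Dchs2, a cadherin related to the Fat family, fell under high stretch from 1.26 ± 0.163 to 0.133 ± 0.0590 CPM (log2 -3.25, edgeR adjusted p = 0.00774) and had -1.99 under low stretch (edgeR adjusted p = 0.0883, and 0.000277 with the block). Ptprq, of the same phosphatase class as Ptpro, fell at low levels in both, to 0.0973 ± 0.0859 CPM under low stretch (n = 6) and 0.0374 ± 0.0229 under high stretch (n = 3), with log2 fold changes of -3.16 and -3.20 (edgeR adjusted p = 0.00957 and 0.0169). The 8 paralogs of the scaffolds and tight junction genes gave no call in either comparison. With plate positions as a block, 2 of them were called higher and 4 lower under low stretch, among them Sh3kbp1, a paralog of Cd2ap (edgeR adjusted p = 0.227 without the block and 0.00315 with it), and Magi3, a paralog of Magi2 (0.0835 and 0.00257). The block called 1 higher and 2 lower under high stretch, beside 614 and 932 of all 18524 genes tested.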

How the data were processed

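RNA of 15 samples was sequenced from stranded poly(A) libraries, per the labels' protocols. The authors deposited raw gene counts (55416 genes) and transcript TPM (140789 transcripts), and the submitters' processing notes name STAR 2.7.5c, featureCounts, Subread 2.0.0, DESeq2 1.38.3, Salmon 1.9.0 and build mm39. The strand setting and the annotation are not given in the sources used here. Symbols, transcript links, exons and the 2 printed exon sequences came from GENCODE M21 (GRCm38), whose coordinates differ from those of mm39. It matched 52135 genes and 137189 transcripts. No per-sample column was left out.

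Low-stretch and high-stretch samples were each fitted against the unstretched samples of the same experiment in edgeR 4.0.16 (R 4.3.3): TMM, filterByExpr and the quasi-likelihood F test, with Benjamini-Hochberg adjustment at 0.05 over all genes tested. CPM used TMM-scaled library sizes. Gene-level TPM is the sum over transcripts. A gene was expressed at 1 TPM or more in every sample of a group, low at 0.1 or more, and otherwise trace. Transcript usage was tested with limma 3.58.1 on log2((transcript TPM + 0.1)/(TPM of the other transcripts + 0.1)), for genes with a mean of at least 1 TPM and transcripts with a mean fraction from 0.05 to 0.95. Alternatives included DESeq2 1.42.0, other filters and size factors, blocks and samples left out. All 9 members are named, as are the called genes of the related lists. One gene of the lists is not reported here. The members and lists were chosen with earlier results of these data known. The tests were tested on simulated data. No pair of replicates agreed within counting noise: the smallest ratio to it was 108 over 24 pairs.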

Additional observations from a re-analysis of the deposited data

How the results depend on the processing

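Plce1 under low stretch kept its direction and its call in each of 8 other settings and 9 fits without 1 sample. The count of members called, 1 under low stretch, was 2 with plate positions as a block and 2 with limma on gene-level TPM, and 1 to 2 without 1 sample. Under high stretch the count of 1 was 0 with limma on gene-level TPM and 0 to 1 without 1 sample. Between the unstretched groups the count of 4 was 2 to 6 without 1 sample, beside 62.5% of all genes called with all samples. The count of member transcripts with changed usage under low stretch, 0, was 1 with no filter, a Plce1 transcript near 0 TPM.

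The labels do not say that replicate numbers pair the samples. Deviations of same-numbered samples correlated at -0.440 to 0.365 in experiment 1 and at -0.163 to 0.450 in experiment 2. In experiment 2 these are also the pairs of the same run, and 3 pairs cannot decide whether samples were paired. Of 12 samples, 5 correlated best with their own number. Runs of plate positions did go with shared deviations in experiment 1 (0.328 to 0.570 within a run), where the block on them changed calls. With a replicate block the counts of members called were 1, 1, 0 and 5 for low stretch, high stretch, their difference and the unstretched groups. Between the unstretched groups that block called 13154 of all 20707 genes tested. It called 0 member transcripts in either usage test. Under low stretch and for the difference, the replicate block left out low-stretch replicates 4 to 6, whose numbers no unstretched sample has. It gave 490 genes over the whole table under low stretch against 1181 with all samples and no block. Block and sample loss cannot be told apart there. Under high stretch, where no sample was left out, the replicate block gave 1546 against 643. Plate positions as a block gave 3 genes for the difference between effects and 6106 under low stretch. DESeq2 gave 2694 and 1309 genes, and all 15 samples in 1 fit gave 640 and 1488. The unfiltered fit gave 1050 under high stretch, and a mean count of at least 100 gave 414. On TPM under high stretch 366 genes were called.

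These sign changes are of values that passed no test, apart from Nphs1 between the unstretched groups, and their cause was not tested. With limma on gene-level TPM, Nphs1 and Kirrel1 under low stretch were -0.10 and -0.076, and Nphs1, Kirrel1 and Podxl between the unstretched groups were -0.15, -0.45 and -0.43. The TPM scale moved the median of all genes to -0.13 under low stretch and -0.64 between the unstretched groups. Kirrel1 was -0.0089 under low stretch with the replicate block and -0.0080 between the unstretched groups at a mean count of at least 100. With the replicate block, low-stretch usage of Kirrel-203, Kirrel-202 and Tjp1-202 was 0.0095, -0.023 and -0.024. Tjp1-202 usage under high stretch was 0.0045 with a pseudocount of 1 TPM.

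Without 1 sample the log2 fold change ranged from -0.12 to 0.074 for Tjp1 under low stretch. Under high stretch it ranged from -0.78 to 0.068 for Nphs1, -0.55 to 0.37 for Cd2ap, -0.46 to 0.16 for Tjp1 and -0.36 to 0.17 for Magi2. The difference between effects ranged from -0.78 to 0.19 for Cd2ap, -0.44 to 0.22 for Tjp1, -0.14 to 0.43 for Magi2, -0.0047 to 0.22 for Podxl and -0.90 to 0.056 for Plce1. Kirrel1 between the unstretched groups ranged from -0.074 to 0.24. Usage under low stretch ranged from -0.14 to 0.040 for Kirrel-203, -0.048 to 0.14 for Kirrel-202, -0.0088 to 0.066 for Tjp1-202 and -0.13 to 0.042 for Fat1-203, and under high stretch from -0.10 to 0.023 for Kirrel-202 and -0.20 to 0.11 for Tjp1-202. Fat1 between the unstretched groups, -0.44 in all samples, passed without unstretched replicate 3 of experiment 2 (-0.76, edgeR adjusted p = 0.000546), as did Plce1 (-1.32, edgeR adjusted p = 0.00577).

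At 0 to 5 counts per library, no difference in Ptpro was detectable. The other 8 members had at least 65 counts in every library.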
